A study of Mus musculus with 10 samples.

Results

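The extracellular antagonists of bone morphogenetic proteins (BMPs) and the inhibitory Smads were examined in MC3T3-E1 cells, a pre-osteoblast line from mouse skull, cultured with or without β-ecdysterone, a plant sterol. The 9 genes were Nog, Chrd, Chrdl1, Grem1, Sostdc1, Fst, Bambi, Smad6 and Smad7. They were picked by gene symbol from the 29583 genes of the deposited table, with the result of treated against 0 μM cells already known, so that comparison is given for them as a description: levels, fold changes and whether the call rule was met, with no p and nothing read from it. Of the 10 libraries, 6 came from cells treated at 100, 150 or 200 μM, 2 from cells at 0 μM, and both kinds were taken after 5 and 10 days of culture. The other 2, A-5 and B-4, were labelled untreated with no time. There was 1 library per dose and time, although the labels give n = 3 for the RNA extraction, and they gave all of them as third-generation cells of strain C57BL/6 and newborn age. The cells were 1 established line. The source label named bone marrow mesenchymal stem cells while the title named MC3T3-E1. The 3 doses of a day stood as replicates of treated cells. Neither the labels nor the methods say that libraries came from separate cultures, so p-values measured only the spread between these libraries.

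BMPs bind pairs of serine/threonine kinase receptors, which phosphorylate Smad1, Smad5 and Smad9, and these enter the nucleus with Smad4 and drive bone formation. Noggin, chordin, chordin-like 1, gremlin 1 and the sclerostin domain protein Sostdc1 hold BMPs outside the cell, and follistatin (Fst) holds activins and, less tightly, some BMPs. Bambi is a receptor-like protein without a kinase, and Smad6 and Smad7 block signalling at the receptor inside the cell. Several of these brakes are themselves induced by BMP or TGF-β and close a negative feedback loop.

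Libraries held between 27108562 and 58218009 counts, and 3 counts, the limit that a count of 0 allows, stood for 0.0502 to 0.118 CPM (counts per 1000000 of the normalized library size) per library; these limits cover counting error only. The labelled cell type was checked on 10 osteoblast markers, all of them detected. Of these, 4 were called higher in treated than in 0 μM cells (Alpl, Ibsp, Runx2 and Sp7) and 1 lower (Dmp1). Over all genes tested, 13.4% were called higher and 5.98% lower, and no cell type is read from the calls. The summed level of the 10 markers was 2681 to 5247 FPKM in treated and 3305 to 4032 FPKM in 0 μM cells. FPKM scale the counts to transcript length and library size. At 0 μM this sum was mostly Col1a1 and Col1a2, with means of 1437 and 2210 FPKM, so it says little of the other markers. The rest stood at 15.5 FPKM (Runx2) or less there, with Alpl at 0.0112, Ibsp at 0.332, Bglap at 0.685 and Sp7 at 1.70 FPKM. The 6 adipocyte markers summed to 1.59 to 4.04 FPKM in treated and 1.80 to 2.02 FPKM in 0 μM cells, and the 5 macrophage markers to at most 1.05 and 1.26 FPKM. The 6 skeletal muscle markers, of which Des and Ckm were called higher, summed to 1.27 to 2.60 FPKM in treated and 0.547 to 0.646 FPKM in 0 μM cells. Alpl and Ckm were near 0 at 0 μM (0.0112 and 0.0260 FPKM), so their calls rest on the treated libraries. The 6 chondrocyte markers, of which 0 were called, summed to 17.8 to 30.1 and 18.3 to 20.2 FPKM. Of 5 marrow stromal markers Kitl and Lepr were called higher and Vcam1 lower, and they summed to 155 to 195 FPKM in treated and 270 to 308 FPKM in 0 μM cells. Adipoq, Cidec, Col9a1, Acan, Myod1, Actn2, Adgre1 and Ptprc were listed at 0 in both 0 μM libraries, Itgam in all treated libraries, and no marker in all 10. The part of these in the results that follow was not tested. In bulk RNA, fewer cells of a type and less RNA per cell cannot be told apart.

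Promoter sequence was given for 3 of the 9 genes, and a stretch of each is shown because these genes went in both directions: Smad6 was higher and Grem1 and Chrd lower in treated cells. Sequences are from RefSeq (GRCm38.p6), 5′ to 3′ on the strand of the gene, with positions counted from the first transcribed base (+1). Capitals mark letters of motifs that Smad proteins are known to bind, namely the palindrome GTCTAGAC and the GC-rich words GGCGCC and GGAGCC. The Smad6 stretch is chr9:64022050-64022169, minus strand, from -110 to +10. The Grem1 stretch is chr2:113758649-113758778, minus strand, from -130 to -1. The Chrd stretch is chr16:20732877-20733026, plus strand, from -250 to -101.
Smad6: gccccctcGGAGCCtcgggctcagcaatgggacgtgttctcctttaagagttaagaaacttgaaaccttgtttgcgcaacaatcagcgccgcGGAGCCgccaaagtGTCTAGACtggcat
Grem1: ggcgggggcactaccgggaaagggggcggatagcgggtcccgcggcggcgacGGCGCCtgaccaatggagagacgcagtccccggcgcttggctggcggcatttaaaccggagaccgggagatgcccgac
Chrd: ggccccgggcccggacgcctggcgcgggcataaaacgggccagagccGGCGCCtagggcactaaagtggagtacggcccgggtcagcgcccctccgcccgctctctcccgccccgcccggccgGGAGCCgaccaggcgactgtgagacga
The palindrome GTCTAGAC lay across the start of Smad6, from -4 to +4, and was held by 70 of 32851 mouse promoters of 300 bases (0.213%), searched on both strands. GGAGCC lay at -102 to -97 and at -18 to -13 of Smad6 and at -127 to -122 of Chrd, and 30.8% of promoters held it. GGCGCC lay at -78 to -73 of Grem1 and at -203 to -198 of Chrd, and 11.9% held it. Of the 2 other words searched, CAGACA, the 6-base form of the Smad box, was found from +7 to +12 of Chrd alone (21% of promoters), and TGTGGT, bound by Runx factors, in none of the 3 (16.8%). No motif overlapped another in these promoters. These matches describe letters and are not shown to be bound.

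Of the secreted antagonists, treated cells had less Grem1 and more Chrdl1 than 0 μM cells, on both days and at all 3 doses. Across the 9 genes, 5 were higher in CPM than the same-day 0 μM library in 6 of 6 treated libraries (Chrdl1, Sostdc1, Fst, Bambi and Smad6). For Fst this did not hold in FPKM. For Sostdc1 it was not resolved at 100 μM on day 10, where 2 counts gave 0.0788 CPM. That is below the 0.0948 CPM that 3 counts stand for in the 0 μM library of that day. Sostdc1 also did not pass the filter on low counts, so the shares given next do not cover it. In CPM 3 were lower in 6 of 6 (Grem1, Chrd and Smad7), and Nog had 0 counts in all 10 libraries. Such an order in 6 of 6 was common: of the 16794 genes that passed the filter on low counts, 30.3% were higher and 27.4% lower, and both days rest on 1 library at 0 μM each. The call needed an adjusted p under 0.05 (edgeR's quasi-likelihood test, Benjamini-Hochberg adjustment) together with a difference of more than 1 on the log2 scale. Of those 16794 genes, 13.4% were called higher and 5.98% lower. The filter was passed by 7 of the 9 members, of which 2 met the rule as higher (Chrdl1 and Bambi), 1 as lower (Grem1) and 4 not (Chrd, Fst, Smad6 and Smad7). Without the fold limit, Smad6 joined the higher and Chrd and Smad7 the lower, giving 3 higher and 3 lower, against 22.6% and 20.8% of all genes. The median log2 fold change was 0.33 over these 7 genes and 0.05 over all genes. As the choice of genes used this contrast, nothing is read from these counts.

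**Figure D1:**
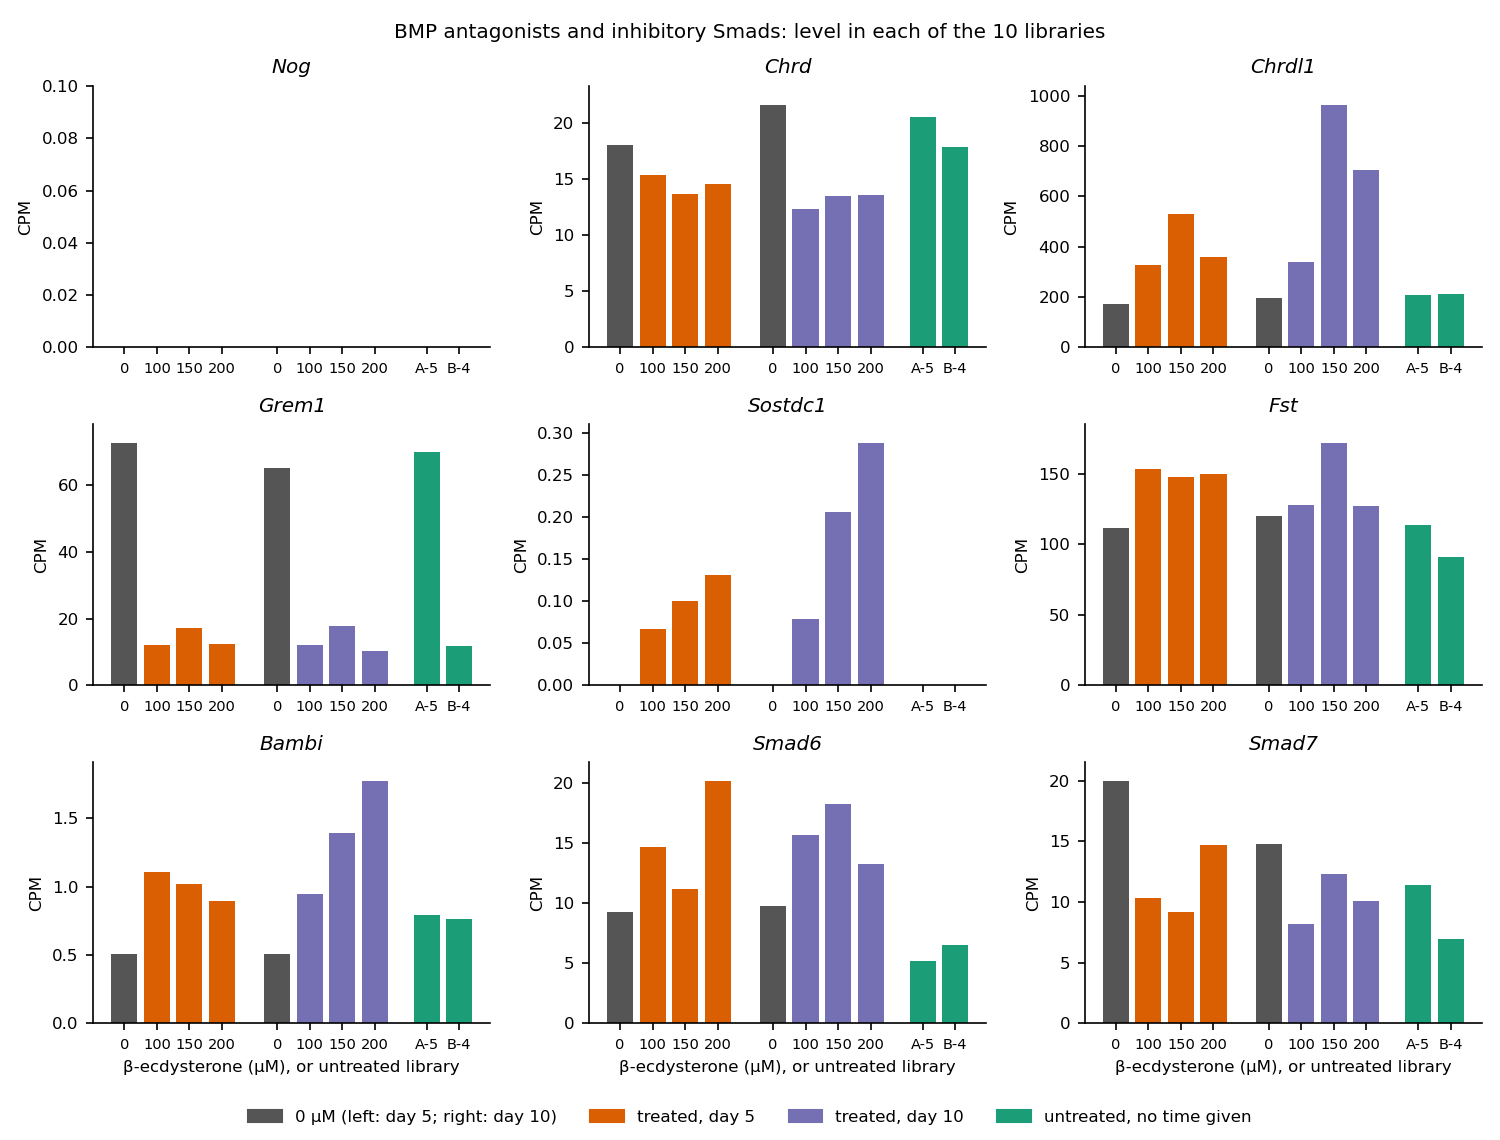
Level of each of the 9 genes in each of the 10 libraries, in CPM on the vertical axis, which starts at 0 and differs between panels; each bar is 1 library, without error bars since each dose and day had 1 library. Grem1 stood between 10.5 and 17.8 CPM in the 6 treated libraries against 65.3 and 72.6 CPM at 0 μM, Chrdl1 stood above 0 μM in all 6, and the Nog panel is empty because all its counts were 0.

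Grem1 (ENSMUSG00000074934, chromosome 2: 113746164 to 113758646, GRCm38, minus strand) encodes gremlin 1, which binds BMP2, BMP4 and BMP7. At 0 μM it stood at 72.6 CPM on day 5 and 65.3 CPM on day 10. With 100, 150 and 200 μM it stood at 12.1, 17.3 and 12.5 CPM on day 5 and at 12.1, 17.8 and 10.5 CPM on day 10. All treated libraries lay far below both 0 μM libraries, and the 150 μM library was the highest of the treated on each day. The mean was 5.02-fold lower in treated cells (13.7 ± 3.06 CPM, SD, n = 6), 5.20-fold on day 5 and 4.84-fold on day 10, and the fitted log2 fold change was -2.33 (SE 0.18). The untreated libraries did not go together: A-5 had 70.0 CPM, between the 0 μM libraries, and B-4 had 12.0 CPM, inside the treated range.

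Chrdl1 (ENSMUSG00000031283, X: 143285674 to 143394262, minus strand) encodes chordin-like 1, a secreted protein with the cysteine-rich repeats by which chordin holds BMPs. At 0 μM it stood at 174 CPM on day 5 and 196 CPM on day 10. At 100, 150 and 200 μM the levels were 329, 531 and 359 CPM on day 5 and 341, 961 and 707 CPM on day 10. The groups did not overlap, and the 150 μM library was again the highest on each day. The mean was 2.91-fold higher in treated cells, 2.34-fold on day 5 and 3.41-fold on day 10, with a log2 fold change of 1.48 (SE 0.36). The untreated libraries stood at 210 and 212 CPM, and with them as reference the call rule was not met (1.34, SE 0.44). Depth moved with the level in treated cells, although CPM is scaled to depth. The 3 treated libraries above 40000000 counts had 531 to 961 CPM and the 3 below had 329 to 359 CPM. Those above were both 150 μM libraries and the 200 μM library of day 10, so 150 μM and depth cannot be told apart. The 0 μM library of day 5 was also above this limit and had the lowest Chrdl1 level of all libraries. Without the 0 μM library of day 10, Chrdl1 was no longer called, at a log2 fold change of 1.20 (SE 0.49).

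Fst (ENSMUSG00000021765, 13: 114452290 to 114458951, minus strand) encodes follistatin. It stood at 111 and 120 CPM at 0 μM on days 5 and 10. Cells with 100, 150 and 200 μM had 153, 148 and 150 CPM on day 5 and 128, 171 and 127 CPM on day 10. The treated libraries of day 5 lay close together, and 2 of the day 10 libraries were close to their 0 μM library. In FPKM these 2, at 100 and 200 μM, lay below it, with 42.9 and 45.3 against 45.9 FPKM. The log2 fold change was 0.33 (SE 0.12), short of the fold limit, and without that limit Fst was not called either. Exons of Fst overlap the antisense gene Gm47040, and since the counting's use of strand is not given in the sources used here, reads of the pair cannot be told apart.

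Chrd (ENSMUSG00000006958, 16: 20733127 to 20742384, plus strand) encodes chordin, whose hold on BMPs is ended by cleavage. It stood at 18.1 and 21.6 CPM at 0 μM on days 5 and 10. In cells given 100, 150 and 200 μM it reached 15.4, 13.7 and 14.6 CPM on day 5 and 12.4, 13.5 and 13.6 CPM on day 10. Every treated library was below both 0 μM libraries and below the untreated ones, at 20.6 and 17.8 CPM. The log2 fold change was -0.52 (SE 0.12), and the treated libraries varied little (13.9 ± 1.03 CPM, SD, n = 6). Exons of Chrd overlap those of Thpo on the opposite strand, with the same limit as for Fst.

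Sostdc1 (ENSMUSG00000036169, 12: 36314139 to 36318452, plus strand), which also binds Wnt co-receptors, was at the edge of detection. It had 0 counts in both 0 μM and both untreated libraries. With 100, 150 and 200 μM it had 2, 6 and 4 counts on day 5 and 2, 11 and 15 counts on day 10. The 40 counts of the treated libraries gave 0.160 CPM, at least 4.39-fold higher than the 0.0364 CPM that 3 counts over both 0 μM libraries allow. It did not pass the filter on low counts in this comparison. Nog (ENSMUSG00000048616, 11: 89300638 to 89302332, minus strand), the gene of noggin, was not detectable at this depth.

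Of the inhibitors that act in or at the cell, Bambi and Smad6 were higher and Smad7 lower in treated cells. Bambi (ENSMUSG00000024232, 18: 3507923 to 3516404, plus strand) was weakly expressed, with 16 to 92 counts per library. It stood at 0.511 and 0.506 CPM at 0 μM on days 5 and 10. At doses of 100, 150 and 200 μM it had 1.11, 1.02 and 0.891 CPM on day 5 and 0.945, 1.39 and 1.77 CPM on day 10. The groups did not overlap, and the untreated libraries, at 0.789 and 0.762 CPM, lay between them. The mean was 2.33-fold higher in treated cells and the log2 fold change 1.19 (SE 0.34). Bambi was no longer called without the 0 μM library of day 5 (1.45, SE 0.49) or of day 10 (0.95, SE 0.46).

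Smad6 (ENSMUSG00000036867, 9: 63953076 to 64022059, minus strand) encodes the inhibitory Smad that acts chiefly on BMP receptors. It stood at 9.24 and 9.80 CPM at 0 μM on days 5 and 10. The 100, 150 and 200 μM libraries had 14.7, 11.2 and 20.1 CPM on day 5 and 15.7, 18.3 and 13.3 CPM on day 10. All treated libraries exceeded the 0 μM and the untreated ones (5.19 and 6.52 CPM), and the dose with the highest level differed between days. The log2 fold change was 0.70 (SE 0.21).

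Smad7 (ENSMUSG00000025880, 18: 75367529 to 75395935, plus strand) encodes the inhibitory Smad that acts on both TGF-β and BMP receptors. It stood at 19.9 and 14.8 CPM at 0 μM on days 5 and 10. Under 100, 150 and 200 μM the levels were 10.4, 9.20 and 14.7 CPM on day 5 and 8.15, 12.3 and 10.1 CPM on day 10. The highest treated library, 200 μM on day 5, stood at nearly the level of 0 μM on day 10. The log2 fold change was -0.68 (SE 0.20). The direction depended on the reference: the untreated libraries stood at 11.4 and 6.95 CPM, and against them the treated cells had a log2 fold change of 0.23 (SE 0.26).

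**Figure D2:**
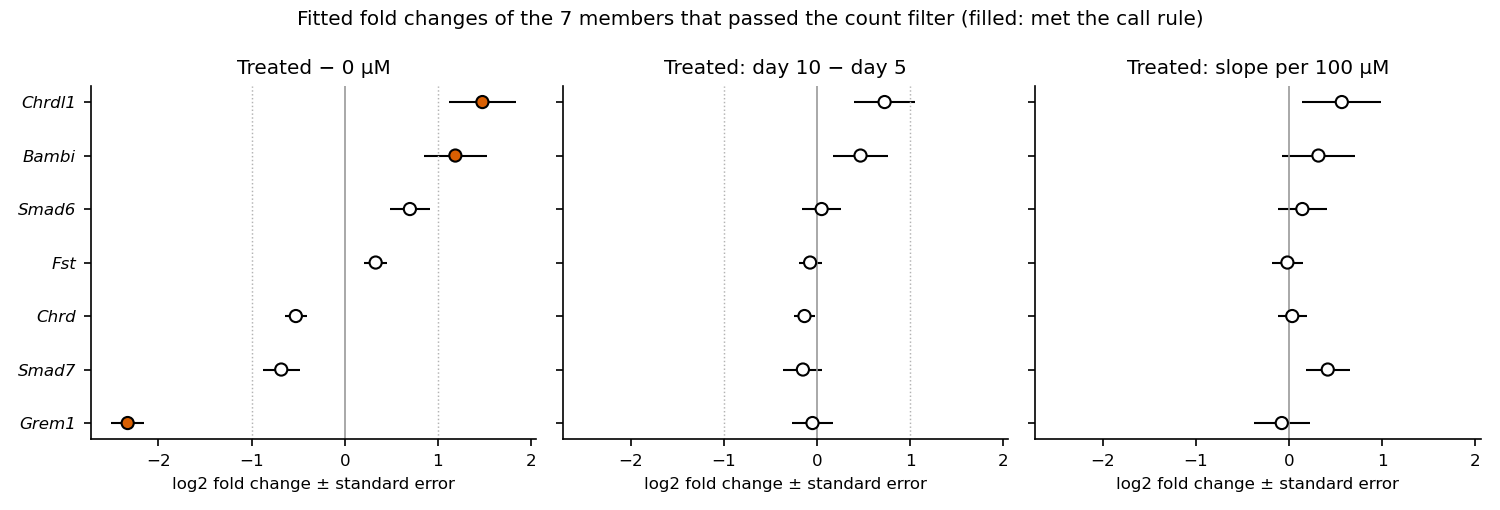
Fitted log2 fold change with its standard error for the 7 genes that passed the filter on low counts, for treated against 0 μM cells, for day 10 against day 5 in treated cells and for the slope per 100 μM in treated cells; filled points met the call rule and dotted lines mark the fold limit where one was used. Only in the left panel are points filled, for Chrdl1 and Bambi to the right and Grem1 to the left.

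The comparison of days within treated cells used no 0 μM library and was tested. In edgeR's quasi-likelihood test of 3 libraries against 3, 0 of 7 members were called in either direction, and 0 had an unadjusted p under 0.05. Of 16020 genes, 0.905% were called higher and 0.144% lower on day 10. Chrdl1 had the greatest difference, from 406 ± 109 CPM on day 5 to 670 ± 312 CPM on day 10 (SD, n = 3), with a log2 fold change of 0.73 (SE 0.32, 95% interval -2.7e-05 to 1.45, adjusted p = 0.273). The 100 μM libraries of both days stood at 329 and 341 CPM, and the difference lay in 150 and 200 μM. Without the 100 μM library of day 10 Chrdl1 was called higher, at 1.04 (SE 0.21). When a term for depth (over 40000000 counts or not) entered the fit, the log2 fold change was 0.33; on day 10, 2 of 3 treated libraries were deep and on day 5, 1 of 3. With dose as a block, which pairs the days at each dose, it was 0.64 (SE 0.17) and 0 members were called.

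Bambi had 1.01 ± 0.108 CPM on day 5 and 1.37 ± 0.412 CPM on day 10 (SD, n = 3), with a log2 fold change of 0.47 (SE 0.30, edgeR's adjusted p = 0.461). Grem1 differed by -0.05 between days, with a 95% interval from -0.53 to 0.44 (adjusted p = 0.936). Smad6 differed by 0.05, from -0.42 to 0.52 (adjusted p = 0.929), and Smad7 by -0.15, from -0.62 to 0.32 (adjusted p = 0.763). Fst differed by -0.07, from -0.35 to 0.20 (adjusted p = 0.808), and Chrd by -0.13, from -0.39 to 0.13 (adjusted p = 0.606). For these 5 genes the interval left no room for a change of 1 on the log2 scale in either direction, while for Chrdl1 and Bambi it did.

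Between 100 and 200 μM no dose trend was found for these genes. The slope was tested with day as a covariate, and 0.006% of 16664 genes were called higher and 0% lower with dose at an adjusted p under 0.05; 391 had an unadjusted p under 0.05, and 0 of the 7 members did. The steepest member slopes were those of Chrdl1, 0.57 per 100 μM on the log2 scale (SE 0.42), and Smad7, 0.41 (SE 0.24), both with edgeR's adjusted p = 0.997. With that depth term the Chrdl1 slope was 0.13. Grem1 had a slope of -0.08, with a 95% interval from -0.77 to 0.61 (adjusted p = 0.997). This interval left room for sizeable slopes in either direction.

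The difference between treated and 0 μM cells was also compared between days in a fit of 4 groups, in which 0 μM had 1 library per day, so the spread of the 0 μM arms was taken from the treated libraries. Of 17799 genes, 0% were called with a higher and 0.0112% with a lower fold change on day 10, and 1464 had an unadjusted p under 0.05. Of the members, 8 passed the filter of this fit. Sostdc1 was among them, but with 0 counts in both 0 μM libraries its difference cannot be estimated, and it is not read. Among the rest, 0 were called or had an unadjusted p under 0.05. The smallest adjusted p was that of Chrd, 0.696, with a difference of -0.39 (SE 0.22, 95% interval -0.89 to 0.12), as its mean was 1.24-fold lower than 0 μM on day 5 and 1.64-fold lower on day 10. The intervals of Chrdl1 (-0.88 to 1.999) and Bambi (-0.998 to 1.97) were wide, and that of Grem1 ran from -0.79 to 1.01.

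Per transcript length, the mixture of secreted antagonist mRNA held a smaller share of Grem1 and a larger share of Chrdl1 in treated than in 0 μM cells. At 0 μM, Chrdl1 (39.8 and 45.7 FPKM on days 5 and 10) and Fst (41.7 and 45.9 FPKM) overlapped as the highest, followed by Grem1 (16.0 and 14.3 FPKM), Chrd (5.13 and 6.12 FPKM), Smad7 (4.26 and 3.14 FPKM), Smad6 (2.83 and 2.99 FPKM) and Bambi (0.091 and 0.087 FPKM). In treated cells the order was Chrdl1 (119 ± 54.3 FPKM, SD, n = 6), Fst (52.1 ± 6.38 FPKM), Smad6 (4.56 ± 0.926 FPKM), Chrd (3.79 ± 0.400 FPKM), Grem1 (2.90 ± 0.687 FPKM), Smad7 (2.23 ± 0.507 FPKM) and Bambi (0.203 ± 0.0591 FPKM). The ranges of neighbours overlapped for Smad6 and Chrd, Chrd and Grem1, and Grem1 and Smad7. Within libraries, Chrdl1 stood above Fst and Chrd above Grem1 in all 6 treated ones, Chrd and Grem1 being nearly equal at 150 μM, while Smad6 against Chrd and Grem1 against Smad7 changed order between libraries and did not differ beyond their spread. Sostdc1 came last, at 0.0662 FPKM.

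Of the summed level of Chrdl1, Fst, Grem1 and Chrd, Grem1 made up 15.6% and 12.8% at 0 μM on days 5 and 10 and 1.07% to 2.06% in the treated libraries. Chrdl1 made up 38.8% and 40.8% at 0 μM and 54.0% to 75.8% in the treated libraries. In untreated A-5 Grem1 made up 13.7% and Chrdl1 43.1%. Untreated B-4 had 2.88% Grem1 and 53.4% Chrdl1, just outside the treated ranges. The sum was 103 and 112 FPKM at 0 μM and 119 to 272 FPKM in treated cells, while B-4, also low in Grem1, had the smallest sum of the 10 libraries, 87.4 FPKM. The Chrdl1 to Grem1 ratio was 2.49 and 3.19 at 0 μM and 29.0 to 70.7 in treated cells; A-5 had 3.15 and B-4 had 18.6. The Smad6 to Smad7 ratio was below 1 at 0 μM (0.664 and 0.954) and between 1.74 and 2.70 in all 6 treated libraries. Here too A-5, at 0.654, lay beside 0 μM, and B-4, at 1.35, lay between the groups. Summed Smad6 and Smad7 stood at 7.09 and 6.13 FPKM at 0 μM and 5.48 to 9.12 FPKM in treated cells, and these overlapped. The ratios use the contrast by which the genes were chosen and carry no test.

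**Figure D3:**
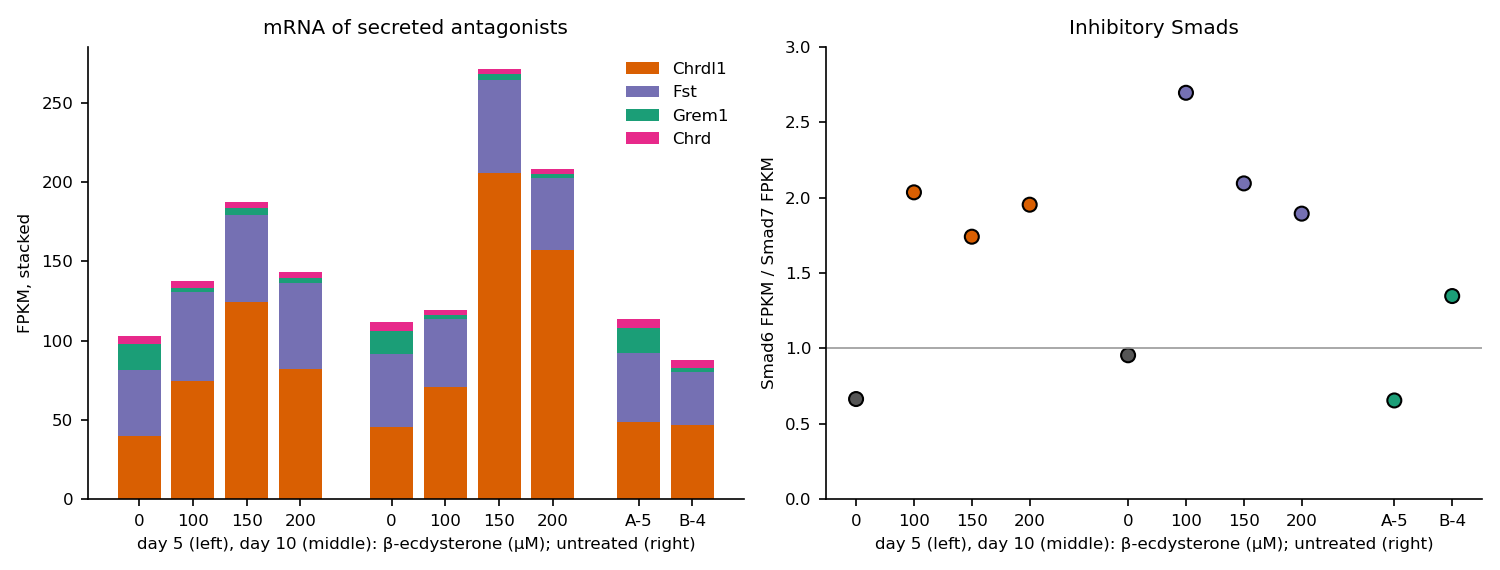
Left, stacked FPKM of Chrdl1, Fst, Grem1 and Chrd in each of the 10 libraries; right, ratio of Smad6 to Smad7 FPKM in each library, with the grey line at 1 and points in grey for 0 μM, orange for treated day 5, violet for treated day 10 and green for untreated. The Grem1 band shrank from 15.6% and 12.8% of the stack at 0 μM to at most 2.06% in treated libraries, and the Smad6 to Smad7 ratio lay between 1.74 and 2.70 in treated libraries and below 1 at 0 μM.

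The rest of the pathway was read from lists, with edgeR's test of treated against 0 μM cells. The lists too were written with earlier results of these data known, so their counts and p-values are no independent evidence, and they stand beside 13.4% called higher and 5.98% called lower over all genes tested. Of the other secreted BMP antagonists and modulators, 12 of 15 passed the filter, of which 6 (50%) were called higher and 0 lower, with a median log2 fold change of 1.09. Of the 6, Sost and Chrdl2 passed the filter only through the treated libraries. Bmper, which binds BMPs through chordin-like repeats, rose by 3.01 (SE 0.26, edgeR's adjusted p = 2.55e-05), from 15.8 to 127 CPM. Sost (sclerostin, a Wnt antagonist of osteocytes) and Chrdl2, a relative of Chrdl1, had 0 counts at 0 μM, so no p is given for them. Their 77 and 56 counts in treated cells put them at least 8.45-fold and 6.15-fold higher. Fstl1, Nbl1 (also called DAN) and Htra1, a secreted protease, rose by 1.33, 1.24 and 1.12.

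Of 11 other intracellular brakes on Smad signalling, all of which passed the filter, 1 rose (9.09%) and 0 fell, with a median of -0.18. The gene that rose was Tob2, an antiproliferative protein that binds Smads, at 1.15 (SE 0.12, edgeR's adjusted p = 8.34e-05). In the untreated libraries Tob2 stood at 36.5 CPM (A-5) and 94.9 CPM (B-4), the latter above the treated mean of 74.8 CPM. Inside the fold limit, and named after their values were seen, the ubiquitin ligases Smurf1 and Smurf2, which work with Smad6 and Smad7, went opposite ways, at -0.93 (SE 0.08, adjusted p = 2.70e-05) and 0.46 (SE 0.12, adjusted p = 0.0113). In A-5 and B-4, Smurf1 stood at 199 and 137 CPM and Smurf2 at 93.9 and 172 CPM, against treated means of 77.9 and 165 CPM. Skil had a log2 fold change of -0.86, Nedd4l of -0.81 and Pmepa1 of 0.84. Of the chordin proteases only Bmp1 passed the filter, at -0.37 (SE 0.08, adjusted p = 0.00605), inside the fold limit too, while Tll1 and Tll2 had 6 and 25 counts in all 10 libraries. Bmp1 cleaves chordin and frees its BMP.

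Among 13 BMP ligands, 5 passed the filter and 3 rose (60%): Bmp8a by 4.18 (SE 0.84), Bmp8b by 2.82 (SE 0.56) and Gdf6 by 1.61 (SE 0.21). Bmp8a and Bmp8b had 4 counts each over both 0 μM libraries, against 261 and 104 in treated cells. They passed the filter only through the treated libraries, so no p is given for them. Bmp4, the ligand with the highest mean in both groups, stood at 5.44 CPM at 0 μM and 5.92 ± 1.23 CPM in treated cells (0.11, edgeR's adjusted p = 0.719), and Gdf7 at 0.43 (adjusted p = 0.666). In the untreated libraries A-5 and B-4, Bmp4 stood at only 0.427 and 0.960 CPM. Gdf6 stood there at 5.75 and 4.90 CPM, near its treated mean of 5.47 CPM. Bmp8a and Bmp8b are close paralogs whose reads can be split between them. Bmp2 had 2 counts at 0 μM and 0 in treated cells. Summed over the ligands, the level was 2.96 and 3.12 FPKM at 0 μM and 3.91 to 5.76 FPKM in treated cells. On the FPKM scale, the summed Chrdl1, Fst, Grem1 and Chrd stood above the summed ligands in every library.

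Of 12 receptors, co-receptors and Smad transducers that passed the filter 1 rose (8.33%), Acvrl1 at 1.64 (SE 0.50) from 0.116 to 0.418 CPM, and the median was 0.27. Acvrl1 had 10 counts over both 0 μM libraries and passed the filter only through the treated ones, so no p is given. Of 11 BMP target genes 4 rose (36.4%) and 0 fell, with a median of 0.82. These were Tmem100 at 3.77, the osteoblast transcription factor Sp7 (osterix) at 3.74, the homeobox gene Msx1 at 1.79 and Runx2 at 1.27, with edgeR's adjusted p between 1.06e-05 and 0.000794. In the untreated libraries A-5 and B-4, Runx2 stood at 113 and 194 CPM, against 90.9 CPM at 0 μM and 223 CPM in treated cells. Tmem100 stood there at 0.394 and 4.47 CPM, Sp7 at 9.69 and 10.4 CPM and Msx1 at 4.67 and 9.97 CPM. Their treated means were 14.3, 81.4 and 16.3 CPM. The log2 fold changes of the 7 targets that were not called ranged from -0.69 (Msx2) to 0.90 (Atoh8, edgeR's adjusted p = 0.0644). Named after their values were seen, the 4 Id genes, direct targets of Smad1 and Smad5, stood at -0.01 for Id1 (SE 0.31, adjusted p = 0.983), 0.63 for Id2 (SE 0.34, adjusted p = 0.164), 0.82 for Id3 (SE 0.40, adjusted p = 0.127) and -0.19 for Id4 (SE 0.25, adjusted p = 0.567).

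**Figure D4:**
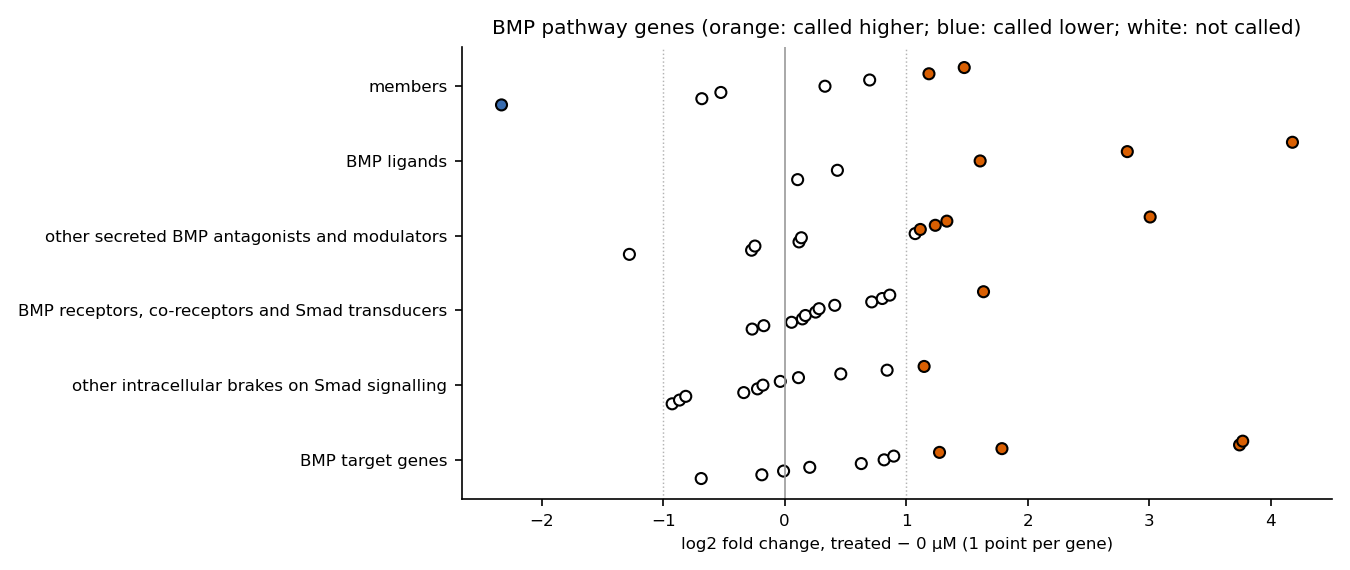
Log2 fold change of treated against 0 μM cells for each gene that passed the filter on low counts, 1 point per gene, for the members and 5 lists of the BMP pathway; orange points were called higher, blue lower and white were not called, and dotted lines mark the fold limit. Chrdl2 and Sost, both without counts at 0 μM, are left out of their list because their fold is a lower bound. Other secreted antagonists held 6 called genes counting those, and Grem1 at -2.33 was the 1 gene called lower among those plotted. The chordin protease, activin and TGF-β lists are not in the plot.

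The genes whose profile over the 10 libraries lay closest to each member were found among 11859 genes with at least 1 CPM on average, by the root mean square difference of centred log2 CPM. This is a description of 10 libraries that share the treatment. Closest to Grem1 were Hmga2 (0.182), Klhdc8a (0.230) and Tnfrsf12a (0.262), against an SD of 1.18 of Grem1 itself. Closest to Chrdl1 were Tbx2 (0.312), 4930503E14Rik (0.318) and Gatb (0.319), with an SD of 0.84. For Smad6 they were Eef1akmt3 (0.153), Scarf2 (0.153) and Maged2 (0.174), and for Smad7 Cad (0.155), Sac3d1 (0.189) and Tcof1 (0.193). For Bambi they were Cracr2a (0.217), Agpat4 (0.222) and Klf9 (0.224), for Fst Dpy19l3 (0.119), Accs (0.119) and Rnf135 (0.121), and for Chrd Anxa2 (0.0603), Dynll1 (0.0693) and Lamtor1 (0.0706). Among the members themselves the closest pairs were Chrd with Smad7 (0.409) and Chrdl1 with Bambi (0.410), and the farthest was Chrdl1 with Grem1 (1.71). Smad6 and Smad7, partners in function, differed by 0.689.

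The deposited annotation put 7 of the 9 genes in the KEGG TGF-beta signaling pathway, all but Chrdl1 and Sostdc1, and 4 (Nog, Chrdl1, Grem1 and Smad7) under the Gene Ontology term for negative regulation of BMP signaling. These 4 hold 1 gene without counts, 1 called higher, 1 called lower and 1 not called. Over all genes tested, 13.4% were called higher and 5.98% lower. As the choice of genes used this contrast, nothing is read from that split. Sostdc1 and Bambi were listed under Wnt signaling.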

How the data were processed

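Poly(A) RNA was sequenced by the authors, who deposited 1 table with read counts per gene, not normalized, and FPKM values for 10 libraries. Genes comprised 22036 with Ensembl identifiers and 7547 new loci. The submitters' processing notes name HISAT2 2.0.4 and GATK 3.2-2 without a role; the counting program, genome build and annotation version are not given in the sources used here. Columns with edgeR comparisons made by the authors were not used.

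Counts were analysed in R 4.3.3 with edgeR 4.0.16 (TMM, filterByExpr, quasi-likelihood test) and limma 3.58.1, and p-values were adjusted over all genes tested. Treated cells were compared with 0 μM cells with day as a covariate; days, a dose slope and the difference of fold changes between days were tested as described with each result. The untreated libraries, which have no time, entered alternatives only. The authors' FPKM values served for levels between genes. CPM used TMM-scaled totals, and profiles used a prior count of 2. Intervals use the t distribution of the fit. Standard errors come from the fit's log2 fold changes and quasi-likelihood F statistics.

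The 9 members, the lists and the tests were chosen with earlier results of these data known. Named were all members, in each list up to 3 called genes with the largest fold change and any gene behind a count of 5 or fewer, and for each tested member the 3 genes with the most similar profile. Some listed genes were named outside this rule, among them Fstl1, Nbl1, Htra1, Smurf1, Smurf2 and the Id genes. Alternatives were DESeq2 1.42.0, library totals without TMM, other filters, no day covariate, dose as a block (for the days), no fold limit, 0 μM replaced by, or joined with, the untreated libraries, and leaving out 1 library at a time; depth class was added after the data were seen. Gene positions are from GENCODE M21 (GRCm38), matched by Ensembl identifier. Depth per library limits precision as stated with the totals. No library was removed. The result for 1 listed gene is not reported here.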

Additional observations from a re-analysis of the deposited data

How the results depend on the processing

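For treated against 0 μM cells these values describe the contrast by which the members were chosen. Grem1 stayed beyond the fold limit under all 10 alternatives (log2 fold change -2.39 to -1.57, the latter with the untreated libraries as reference) and with each library left out (-2.45 to -2.26). The number of members that met the call rule as higher was 1 with that reference and 3 with genes kept from 1 count in total (Sostdc1 joined), and ranged from 0 to 2 with a library left out (1 without the 0 μM library of day 5, 0 without that of day 10); the number as lower was 3 with no fold limit. Against the untreated libraries Chrdl1 (1.34) and Bambi (0.62) no longer met the rule, Smad6 (1.40) did and Smad7 reversed to 0.23; with the untreated libraries added to 0 μM, Bambi (0.90) no longer met it and Smad6 (1.02) did. The cause was not tested. On library totals the Smad6 difference between days reversed to -0.080 and the Fst dose slope to 0.019.

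With a library left out, members called higher on day 10 ranged from 0 to 1 (Chrdl1, without 100 μM on day 10). The differences between days ranged from -0.31 to 0.072 for Smad7, -0.31 to 0.14 for Grem1 and -0.14 to 0.30 for Smad6. Dose slopes ranged from -0.39 to 0.29 for Grem1, -0.36 to 0.46 for Smad6, -0.047 to 0.15 for Chrd, -0.10 to 1.13 for Chrdl1, -0.067 to 0.66 for Bambi and -0.19 to 0.15 for Fst. The difference of fold changes between days ranged from -0.15 to 0.29 for Grem1 and from -0.23 to 0.21 for Smad6. Where this left 1 library in a group, the lone library was assumed to vary like the others.

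Over all genes, those called higher in treated cells ranged from 1078 to 3790 over the alternatives and those called lower from 453 to 3490. On day 10 these were 133 to 333 and 30 to 115, with a dose slope 1 to 49 and 0 to 59, and with a difference between days 0 to 53 and 2 to 25. With a library left out, genes called higher on day 10 ranged from 18 to 186 and lower from 0 to 38. With dose as a block, which pairs the days at each dose, 181 genes were called higher and 30 lower on day 10, and 0 members. The labels number no replicates, so no pairing by replicate number was made. Depth limits Sostdc1 and Bambi, with at most 15 and 92 counts per library, and Nog, with 0.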

Other observations

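Follistatin's own ligands and the TGF-β side of the pathway, which Smad7 also restrains, were read from the same test of treated against 0 μM cells. Of 5 activin and inhibin genes 3 passed the filter on low counts and 0 were called. Inhba, the activin A subunit, stood at 59.8 CPM at 0 μM and 49.6 ± 12.7 CPM (SD, n = 6) in treated cells, with a log2 fold change of -0.33 (SE 0.15, edgeR's adjusted p = 0.101). Inha stood at 0.04 (SE 0.22, edgeR's adjusted p = 0.903), and Inhbb, with 62 counts in all 10 libraries, at -1.71 (SE 0.86). Inhbb had 0.361 CPM at 0 μM and 0.114 CPM in treated cells. It passed the filter chiefly through the 0 μM libraries, so no p is given for it.

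Of 12 TGF-β ligands, receptors and target genes that passed the filter 1 rose (8.33%) and 2 fell (16.7%), beside 13.4% and 5.98% of all genes, with a median log2 fold change of 0.34 against 0.05. The list was written with earlier results of these data known. Tgfb2 rose from 9.36 to 23.1 CPM, by 1.29 (SE 0.11, edgeR's adjusted p = 1.91e-05). Smad3, which carries the TGF-β signal, fell by 1.10 (SE 0.09, adjusted p = 2.27e-05), from 111 to 52.1 CPM, and Ctgf, a TGF-β target, fell by 1.15 (SE 0.32, adjusted p = 0.0154), from 63.1 to 29.5 CPM. In the untreated libraries A-5 and B-4, Smad3 stood at 115 and 61.7 CPM and Ctgf at 5.42 and 6.16 CPM, so Ctgf was below the treated mean there.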
